A study of Mus musculus with 4 samples.

Results

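The secreted antagonists of Wnt signaling were examined in the ATAC-seq peak lists of postnatal day 0 (P0) hippocampi. ATAC-seq maps open chromatin by the places where Tn5 transposase can cut. The set was listed by gene name and holds 10 of the 21938 protein-coding genes: Sfrp1, Sfrp2, Sfrp4, Sfrp5, Frzb, Wif1, Dkk1, Dkk2, Dkk3 and Dkk4. The 2 groups had 2 libraries each, called Ctrl1, Ctrl2, cKO1 and cKO2 by group and replicate number. In cKO mice (Kdm2bEmx1-ΔCxxC), Emx1-Cre deleted the floxed exon of Kdm2b that encodes the CxxC zinc finger, the domain through which KDM2B binds CpG islands. Ctrl mice were Kdm2b fl/+ or Kdm2b fl/fl, and the labels do not say which of these each Ctrl library came from. Peak names in the Ctrl lists carry different tags whose meaning is not given, so a genotype difference between Ctrl1 and Ctrl2 cannot be told apart from the spread of replicates. Emx1-Cre acts in the dorsal telencephalon, so other cells of the dissected tissue kept the exon. Nothing says whether libraries of a group came from different animals, so a p-value here measures only the spread between these libraries. The source field names neural progenitor cells, whereas titles and protocol name hippocampus. In bulk tissue, an open site in fewer cells and a less open site in each cell cannot be told apart.

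Secreted Wnt antagonists are so called because they can keep Wnt proteins from activating their receptors. The paper states that SFRPs were first described as inhibitors of Wnt, but that Sfrp2 can promote or inhibit the pathway. SFRP proteins and FRZB carry a cysteine-rich domain like that of the Frizzled receptors and bind Wnt directly, and WIF1 binds Wnt through a domain of its own. DKK1, DKK2 and DKK4 instead bind the co-receptors LRP5 and LRP6, and DKK3 is the divergent member of its family. In the hippocampus, Wnt signals from the cortical hem direct the growth of the hippocampal field, and FRZB is known as a brake on neurogenesis in the dentate gyrus.

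The 4 lists differed in length before any gene was considered. They held 7037 to 46389 peaks at a recovered depth of 14.6 to 29.6 M fragments (M, mega). Ctrl2 stood apart, with the fewest peaks at the highest depth and with 60.6% of its peaks at least 50% repeat-masked, against 5.37% to 14.7% in the other lists. Values are therefore given with and without it. Promoter peaks, with a summit within 2 kb of a transcription start site (TSS), were found for 58.0% of all protein-coding genes in Ctrl1, 8.27% in Ctrl2, 40.3% in cKO1 and 55.9% in cKO2. Of 10 genes that mark the dorsal telencephalon and hippocampus, 8, 0, 5 and 9 had a promoter peak in these lists in the same order. The tissue label was met by Emx2, Lhx2, Pax6, Sox2 and Neurod6 in every list but that of Ctrl2. Emx1, Zbtb20 and Prox1 had a promoter peak in Ctrl1 and cKO2 only, Neurod2 in cKO2 only, and Bcl11b in no list. The 2 oligodendrocyte, 3 microglial and 3 endothelial genes examined were at 0 in all lists. Of 5 meningeal and mesenchymal genes, 3, 0, 1 and 2 had a promoter peak, with summed promoter percentiles (defined below) of 162 and 0 in Ctrl and 62.4 and 104 in cKO, and Twist1 and Dcn were at 0. Of 3 choroid plexus genes, Ttr alone had one, at percentiles of 49.8 and 0 in Ctrl and 59.8 and 57.5 in cKO. Of 3 interneuron genes, 3, 0, 0 and 1 had a promoter peak, and of 4 genes of the cortical hem and Cajal-Retzius cells only Reln had one, in Ctrl1. The part of these cell types in the results was not tested. Exon 13 of Kdm2b held 0 peaks in each list, so that the deletion could not be read from these data.

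Promoter peaks were found at 6 of the 10 antagonist genes in Ctrl1, 0 in Ctrl2, 3 in cKO1 and 5 in cKO2. Over the set, 7 genes had a promoter peak in at least 1 list, and Sfrp5, Dkk3 and Dkk4 had none in any list. The count was 4.0 ± 1.41 in cKO and 3.0 ± 4.24 in Ctrl (SD, n = 2), so that the difference of 1.0 was smaller than the spread in either group. Without Ctrl2 the difference was −2.0. Set beside all genes, these are 6 of 10 against 58.0% in Ctrl1, 0 of 10 against 8.27% in Ctrl2, 3 of 10 against 40.3% in cKO1 and 5 of 10 against 55.9% in cKO2. In any list, it is 7 of 10 against 60.2%.

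Strength was compared as a promoter percentile, the share of protein-coding genes that have no promoter peak or a strongest one with a lower −log10 p in the same list, with 0 for a gene without one. The median over the 10 genes was 43.0 in Ctrl1, 0 in Ctrl2, 0 in cKO1 and 23.0 in cKO2, and the medians over all protein-coding genes were 49.9, 0, 0 and 50.0. Among genes with a promoter peak, the members had medians of 50.7 in Ctrl1, 66.6 in cKO1 and 54.7 in cKO2, and all such genes had 71.0, 79.9 and 72.1. In each of these lists the median of the members was the lower. A list that is short starts high: the lowest percentile of a gene with a promoter peak was 42.0 in Ctrl1, 91.7 in Ctrl2, 59.7 in cKO1 and 44.1 in cKO2.

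**Figure D1:**
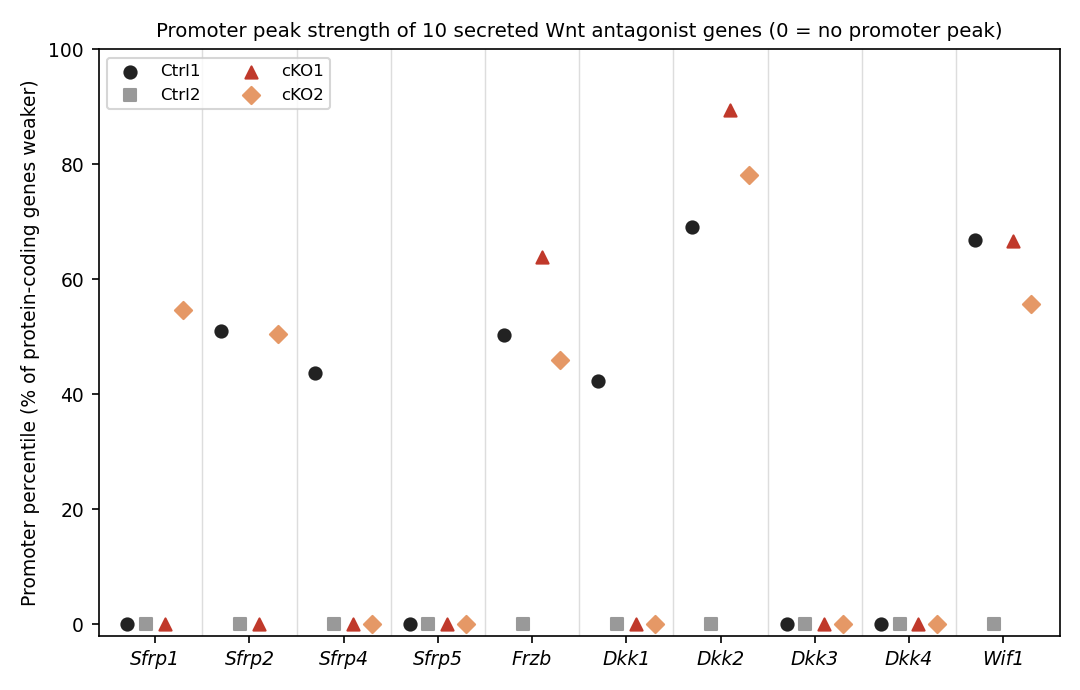
Promoter percentile (y axis, percent of protein-coding genes with a weaker promoter peak or none in the same list) of each gene in the 4 libraries, where 0 stands for no promoter peak. At this promoter window, Dkk2 is the one gene at which both cKO points (89.5 and 78.2) lie above both Ctrl points (69.0 and 0), and every point of Ctrl2 is at 0.

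Both cKO percentiles lay above both Ctrl percentiles at Dkk2, 1 of the 7 members that any list gave a promoter peak. The reverse could not occur at any member, because Ctrl2 was at 0 for each and no percentile is lower. With Ctrl2 at 0, the upward call asks only whether both cKO values exceed that of Ctrl1. Of all 13196 such genes, 20.5% separated upward, so the members' upward count is not above the background. Downward it was 2.80%, but most genes had no promoter peak in Ctrl2 and could not separate that way. These counts depend on the processing. With promoters of 1 kb, Frzb separated upward, and Dkk2 was at 0 in all libraries and no longer separated. When genes without a peak took their mid-rank, Sfrp4 and Dkk1 had both cKO values below both Ctrl values. List length fixed that order in advance, because both genes had a peak in Ctrl1 only. Any gene without a peak took 45.9 in Ctrl2, 29.9 in cKO1 and 22.1 in cKO2. The order therefore says nothing about Sfrp4 or Dkk1, and the shares above are for the main setting only. There are 6 ways to assign the 4 libraries to the groups, so the exact permutation test (two-sided) cannot give a p below 0.333, and 0 of the 13196 genes had an unadjusted p under 0.05. The Benjamini-Hochberg adjusted p was 1 for each of the 7 members tested.

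Among the genes whose products bind Wnt, Sfrp1 (chr8:23411502-23449632, plus strand) had the most CpG-rich start site. The observed over expected CpG ratio in the 1001 bp around the TSS was 1.04, above that of 99.1% of protein-coding genes. A promoter peak was called in cKO2 alone, at a percentile of 54.7, with its summit 126 bp upstream of the TSS. That summit held 19 fragments, or 10.52 times the mean depth over the genome in cKO2 (scaled depth, exact Poisson 95% interval 6.33 to 16.4, for counting error only). The other 3 libraries were at 0, so the cKO libraries did not share the peak (difference 27.3, exact permutation p = 1, and 54.7 without cKO1 or 0 without cKO2). That p was fixed in advance, because a peak in a single library gives a difference of the same size under every assignment.

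Sfrp2 (chr3:83766321-83774316, plus strand), which like Sfrp1 encodes a Wnt-binding SFRP, had open sites at 2 places near its TSS. It was at percentiles of 51.0 in Ctrl1, 0 in Ctrl2, 0 in cKO1 and 50.4 in cKO2. The difference between groups was −0.328 (exact permutation p = 1), and 1 library of each group had no promoter peak. Its direction was not stable, at −25.8 without Ctrl2, 25.2 without Ctrl1, 24.8 without cKO1, 1.79 with promoters of 1 kb and 29.6 with promoters of 3 kb, a width chosen after seeing the data. At the TSS itself, a peak in Ctrl1 had its summit 28 bp upstream (13 fragments, scaled depth 8.01) and a peak in cKO2 had it 51 bp upstream (17 fragments, 9.41). A second site about 2 kb upstream was called in 3 lists, with summits 1957 bp away in Ctrl1 (16 fragments, scaled depth 9.86), 2111 bp away in cKO1 (11 fragments, 5.3) and 2054 bp away in cKO2 (17 fragments, 9.41). The 2 kb limit passes through this site, and it counted toward the promoter in Ctrl1 only. Of the places near Sfrp2, the TSS was thus called in 1 library of each group, and the upstream site in both cKO libraries and in Ctrl1.

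The 200 bases of the Sfrp2 promoter that end 51 bp before the TSS (chr3:83766071-83766270, GRCm38.p6, plus strand, RefSeq promoter) are given because the summit of cKO2 is their last base. The capitals mark CpG dinucleotides, the sites a CxxC domain binds when unmethylated, and there are 16 of them.
Sfrp2 promoter: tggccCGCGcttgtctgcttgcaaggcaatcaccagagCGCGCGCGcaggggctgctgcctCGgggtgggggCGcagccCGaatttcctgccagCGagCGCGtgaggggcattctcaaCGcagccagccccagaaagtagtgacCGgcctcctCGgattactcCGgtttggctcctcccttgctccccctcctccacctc

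Wif1 (chr10:121033960-121100650, plus strand), whose product binds Wnt outside the SFRP family, was open at its TSS in 3 lists. The percentiles were 66.9 in Ctrl1, 0 in Ctrl2, 66.6 in cKO1 and 55.7 in cKO2. The groups overlapped, with a difference of 27.7 (exact permutation p = 1) that became −5.71 without Ctrl2 and 61.2 without Ctrl1. It was 4.79 with genes without a peak at their mid-rank, and 0 in lists cut to equal length. At the summits, the scaled depth was 17.26 in Ctrl1 (28 fragments, interval 11.5 to 24.9), 6.75 in cKO1 (14 fragments, 3.69 to 11.3) and 9.41 in cKO2 (17 fragments, 5.48 to 15.1). The interval of cKO1 lay below that of Ctrl1. Over all regions these libraries shared the median ratio was 0.45, and at Wif1 it was 0.39. In cKO2 the ratio to Ctrl1 was 0.55 at Wif1, below the lower quartile of 0.77 over all shared regions, whose median was 0.93. Wif1 has 2 annotated TSSs. From the first, the summits lay 53 bp downstream in Ctrl1, 83 bp downstream in cKO2 and 561 bp upstream in cKO1. From the second, which was nearer to them, the Ctrl1 and cKO2 summits lay 11 bp upstream and 19 bp downstream.

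The 200 bases that end 7 bp before the first Wif1 TSS (chr10:121033754-121033953, GRCm38.p6, plus strand, RefSeq promoter) are set beside those of Sfrp2, because both start sites are CpG-rich and both were open. They also hold 16 CpGs, again in capitals, and no Wif1 summit lies within them.
Wif1 promoter: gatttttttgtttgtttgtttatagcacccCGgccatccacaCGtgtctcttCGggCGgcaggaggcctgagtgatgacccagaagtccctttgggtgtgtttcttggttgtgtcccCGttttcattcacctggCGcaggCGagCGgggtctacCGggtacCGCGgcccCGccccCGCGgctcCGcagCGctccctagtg

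**Figure D2:**
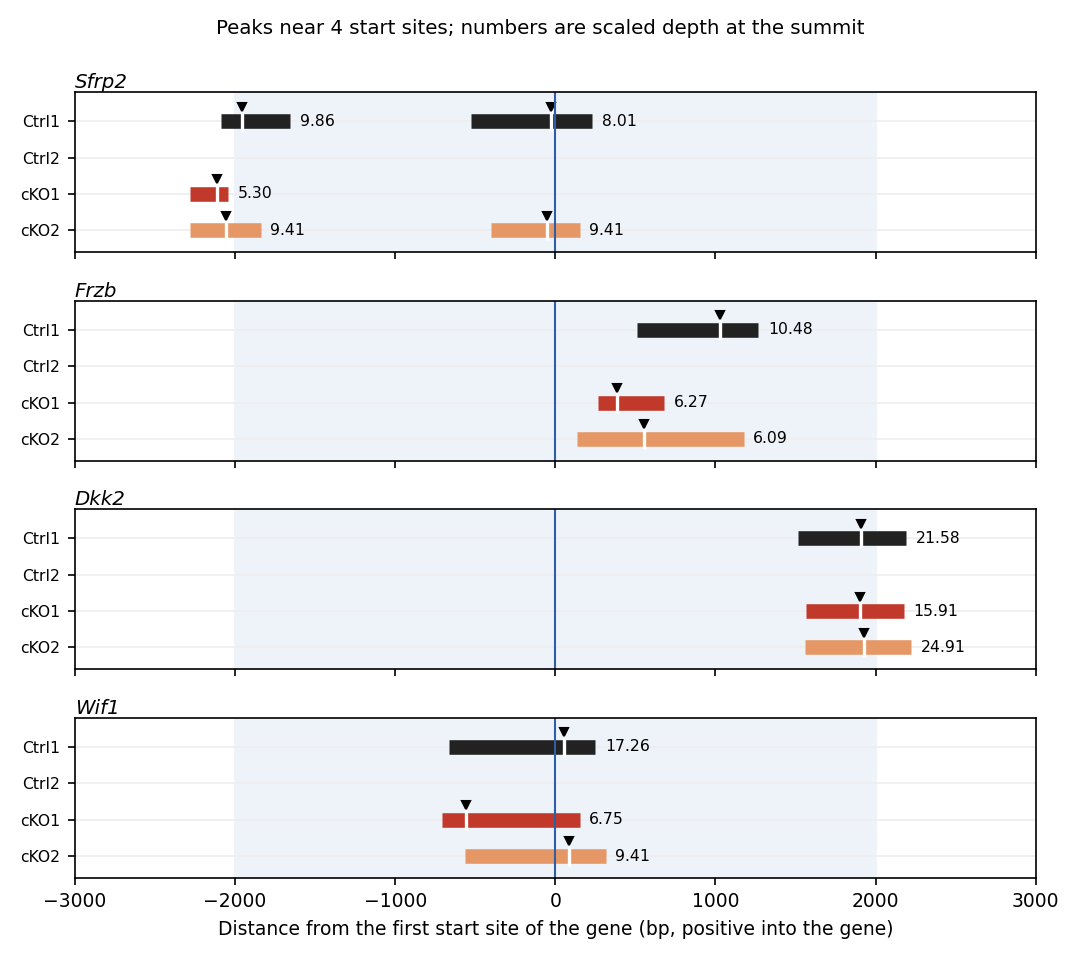
Peaks (bars) and their summits (arrowheads) around the first TSS of Sfrp2, Frzb, Dkk2 and Wif1, with distance in bp on the x axis, 1 line per library and the 2 kb window shaded. The Dkk2 summits sit 1905 to 1928 bp into the gene in 3 libraries, the upstream Sfrp2 site straddles the edge of the window, and Ctrl2 has no peak in any panel.

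Frzb (chr2:80411970-80447625, minus strand) encodes the SFRP-like antagonist known from the dentate gyrus. Its percentiles were 50.3 in Ctrl1, 0 in Ctrl2, 63.9 in cKO1 and 46.0 in cKO2. The Ctrl value of 50.3 lay between the cKO values, and the difference of 29.8 (exact permutation p = 0.667) became 4.63 without Ctrl2 and 55.0 without Ctrl1. With promoters of 1 kb, the Ctrl1 summit fell outside the window, and Frzb was at 0 and 0 in Ctrl and at 65.1 and 47.9 in cKO, so that the groups did not overlap (difference 56.5, exact permutation p = 0.333). With peaks of a −log10 q of at least 5 alone, the difference turned to −25.2, and with genes without a peak at their mid-rank it was 6.86. The peaks lay inside the gene, with summits 1026, 383 and 551 bp past the TSS in the same 3 lists and scaled depths of 10.48, 6.27 and 6.09, whose intervals overlapped (6.1 to 16.8, 3.34 to 10.7 and 3.04 to 10.9). Relative to Ctrl1 the depth was 0.58 in cKO2, below the quartiles of 0.77 to 1.13 over all regions that these libraries share, and 0.6 in cKO1, at the upper of the quartiles of 0.36 to 0.6. Sfrp4 (chr13:19623104-19632994, plus strand), a further SFRP gene, had a promoter peak in Ctrl1 only, at a percentile of 43.7, with 15 fragments at a summit 74 bp upstream. Sfrp5 (chr19:42197971-42202252, minus strand) had none, although its start site was CpG-rich, with a ratio of 0.66.

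Among the genes whose products bind LRP co-receptors, Dkk2 (chr3:132085292-132180304, plus strand) had the strongest promoter peak of the set by −log10 p in each list that held one. By fold enrichment, the Wif1 peak was stronger in Ctrl1 (10.2 against 9.31). The peak lay in intron 1, with summits 1911 bp past the TSS in Ctrl1, 1905 bp in cKO1 and 1928 bp in cKO2, and it was absent from the list of Ctrl2. It ranked 9328 of 46389 peaks in Ctrl1, 2978 of 21404 in cKO1 and 6448 of 44535 in cKO2. The summit position thus varied less between libraries than that of Frzb or Wif1. Percentiles were 69.0 and 0 in Ctrl and 89.5 and 78.2 in cKO, or 34.5 ± 48.8 and 83.8 ± 7.99 (SD, n = 2). The groups did not overlap, and the difference of 49.3 had an exact permutation p of 0.333, the smallest this design can give. The difference was 14.9 without Ctrl2, 83.8 without Ctrl1 and 26.4 with genes without a peak at their mid-rank.

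At the Dkk2 intron site, the scaled depth was 21.58 in Ctrl1 (35 fragments, interval 15.0 to 30.0), 15.91 in cKO1 (33 fragments, 11.0 to 22.3) and 24.91 in cKO2 (45 fragments, 18.2 to 33.3). The order was cKO2, Ctrl1 and cKO1, with the Ctrl1 value between those of the cKO libraries, and the difference in depth was not tested. Relative to Ctrl1, the ratio was 0.74 in cKO1, where the middle 50% of all shared regions had 0.36 to 0.6, and 1.15 in cKO2, where it had 0.77 to 1.13. The site was above the upper quartile of shared regions in both cKO libraries, by little in cKO2. In cKO1 its ratio was the highest of the 11 member regions. In cKO2 several member regions had a higher ratio, up to 1.5 at a site in Dkk3. With a promoter window of 1 kb, the site counted toward no promoter and the difference was 0.

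The 300 bases centred on the summit of cKO1 (chr3:132087047-132087346, GRCm38.p6, plus strand) overlap no exon and are shown because the separation of the groups at Dkk2 rests on this site. Capitals mark matches, on either strand, to CTTTGA (the core bound by TCF and LEF, the effectors of Wnt signaling), TAATTA (bound by LIM-homeobox factors) or CAGATG (an E-box of neural bHLH factors).
Dkk2 intron 1: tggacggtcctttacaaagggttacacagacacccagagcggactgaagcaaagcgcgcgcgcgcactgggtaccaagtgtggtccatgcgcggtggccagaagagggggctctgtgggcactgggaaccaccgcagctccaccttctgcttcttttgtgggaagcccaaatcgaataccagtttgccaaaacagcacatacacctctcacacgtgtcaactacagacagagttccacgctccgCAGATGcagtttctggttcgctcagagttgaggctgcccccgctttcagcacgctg

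The letters CAGATG occur here 1 time and the other motifs do not occur. Over all peaks, the same window holds CAGATG in 27.3% of peaks in Ctrl1, 18.6% in Ctrl2, 23.6% in cKO1 and 28.6% in cKO2. The genes most like Dkk2 in percentile over the 4 libraries were Cercam (68.7, 0, 87.5 and 78.8), Polr2d and Fam81b, at Euclidean distances of 2.13, 2.89 and 3.46 percentile points. For Sfrp2 they were Syce2, Stk32b and Eps8l1, at 0.122, 0.271 and 0.293, and 99 genes lay within 2 points, whereas 0 did for Dkk2.

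Dkk1 (chr19:30545863-30549665, minus strand), the best-known LRP-binding antagonist, had a promoter peak in Ctrl1 alone. It lay in an intron 677 bp past the TSS, at a percentile of 42.3, with 8 fragments and a scaled depth of 4.93 (2.13 to 9.72). That is the shallowest promoter peak of the set, in a list where 7 fragments sufficed at mean background. Dkk3 (chr7:112116017-112159057, minus strand) and Dkk4 (chr8:22624043-22627547, plus strand) had no promoter peak in any list. Their CpG ratios of 0.42 and 0.31 were lower than those of all other members.

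CpG content around the TSS, the feature that the CxxC domain reads, was set beside the promoter peaks. By GC of at least 50% and a CpG ratio of at least 0.6 around the TSS, 5 members (Sfrp1, Sfrp2, Sfrp5, Frzb and Wif1) were CpG-island-like, as were 46.0% of all protein-coding genes. A promoter peak was present at 3, 0, 2 and 4 of these 5 in Ctrl1, Ctrl2, cKO1 and cKO2, and at 3, 0, 1 and 1 of the other 5. Over all genes, CpG-island-like promoters had a peak in 91.4%, 15.5%, 69.1% and 89.2% of cases and other promoters in 29.6%, 2.15%, 15.7% and 27.4%. These are descriptions of 5 genes against 5, without a test.

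Over the gene bodies and 50 kb on either side, each antagonist locus held a peak in at least Ctrl1 and cKO2. The 10 loci held 35 peaks in Ctrl1, 0 in Ctrl2, 12 in cKO1 and 34 in cKO2. Peaks were found at 10, 0, 8 and 10 loci, and the loci without one in cKO1 were those of Sfrp5 and Dkk1. Of all protein-coding genes, 87.1%, 38.2%, 77.2% and 86.7% had a peak in the same stretch, so the counts of 10, 8 and 10 are near the background and 0 in Ctrl2 is below it. The mean was 23.0 ± 15.6 in cKO and 17.5 ± 24.7 in Ctrl (SD, n = 2), a difference of 5.5 that is smaller than either spread. That difference turned to −12.0 without Ctrl2 and to −5.5 without cKO2, and was 23.0 without Ctrl1. Per Mb, the loci held 26.8, 0, 9.17 and 26.0 peaks, and the genome held 17.0, 2.58, 7.85 and 16.3. The median protein-coding gene had 3, 0, 2 and 3 peaks in the same stretch. In cKO1, where the loci were above the genome per Mb, 4 of the 10 genes reached 2 peaks and the rest had fewer.

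The loci with the most peaks were those of Dkk3 and Wif1, with 5 each in Ctrl1 and in cKO2, more than at 66.0% and 67.5% of all protein-coding genes. Sfrp4 had 3, 0, 1 and 1, with its strongest peak at the promoter of the neighbouring gene Epdr1. Dkk3 and Dkk4, without a promoter peak, still had 1 and 2 locus peaks in cKO1. At Dkk4, these lay at the promoters of the neighbours Vdac3 and Polb, and the Vdac3 peak had the highest scaled depth of all regions at the 10 loci, 40.07 in Ctrl1.

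**Figure D3:**
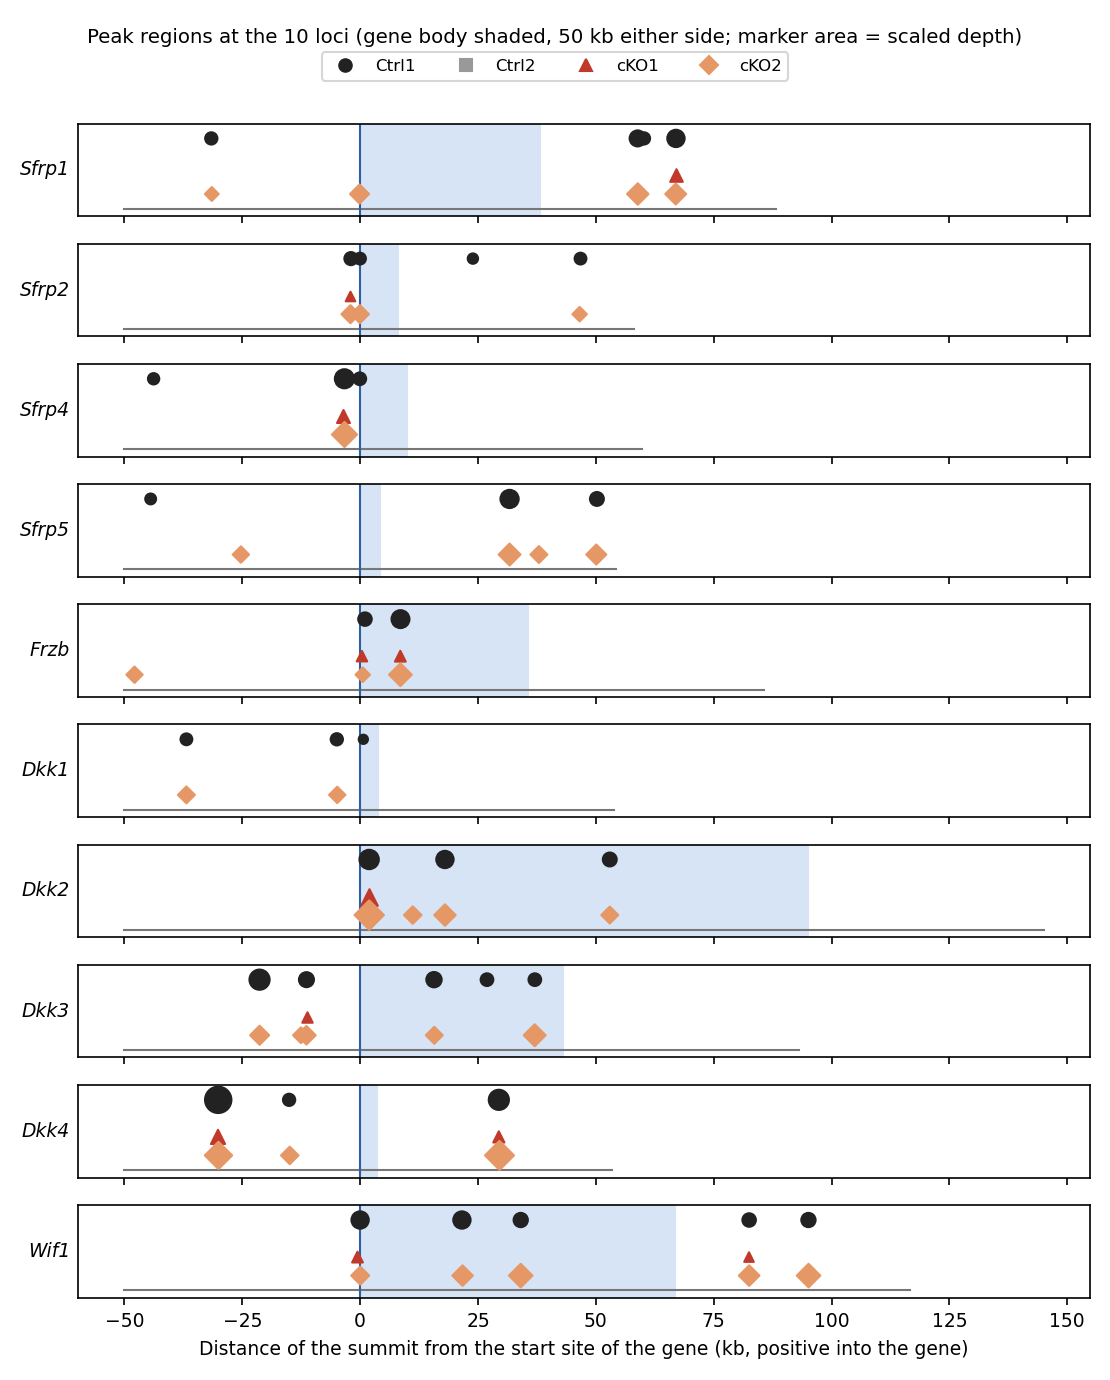
Summits of the 41 peak regions at the 10 loci by distance from the TSS in kb (x axis), with the gene body shaded, a grey line for the stretch examined, 1 row of markers per library and marker area proportional to scaled depth. Ctrl1 (35 regions) and cKO2 (34) share most positions, cKO1 holds 11, and Ctrl2 holds none.

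Merging peaks that overlapped by at least 1 bp gave 41 regions at these loci, out of 58652 in all. Of the 41, 8 lay at a promoter of the set, 8 at a promoter of another gene and 25 were distal, over 2 kb from any TSS. Ctrl1 held 35, cKO2 held 34 and cKO1 held 11. All 11 of cKO1 and 28 of the 34 of cKO2 were also held by Ctrl1. Exactly Ctrl1 with both cKO libraries held 11 regions, or 26.8%, against 25.9% of all regions and 29.4% when Ctrl2 is left out. Exactly Ctrl1 and cKO2 held 17, or 41.5%, against 27.1% and 30.8%. No region was held by both cKO libraries alone, against 0.692% of all, and none by both Ctrl libraries alone, against 0.305%. Ctrl2 held none of the 41 and 11.9% of all regions. Its list would have called 12 fragments at mean background, a scaled depth of 3.46, and promoter peaks of the set had 4.93 to 24.91 in the other libraries. The median depth over genes with a promoter peak in the same list was 6.06 in Ctrl2 and 23.43 in Ctrl1, over different genes, and these values do not show that the same sites would have been called there.

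At shared regions, the scaled depth in cKO2 was 0.84 times that in Ctrl1 in the median of 28 regions (0.45 to 1.5), and 10 of them were deeper in cKO. Over the 34487 regions shared by these libraries, the median was 0.93, and 39.2% were deeper in cKO. In cKO1 the median was 0.48 over 11 regions (0.29 to 0.74) and 0.45 over all 18883. Between the cKO libraries, cKO2 was 1.77 times as deep as cKO1 over 11 regions and 2.03 times over all 19357. By these medians, the cKO libraries lay further from each other at these loci than cKO2 lay from Ctrl1.

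**Figure D4:**
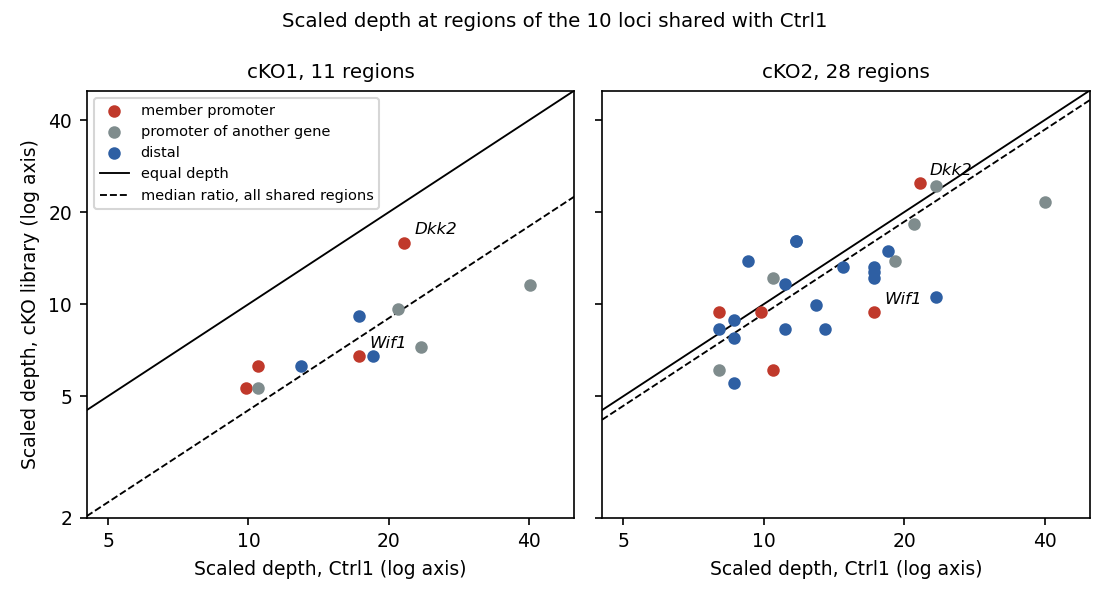
Scaled depth in each cKO library (y axis, log) against Ctrl1 (x axis, log) at regions of the 10 loci that both lists hold, with equal depth as a solid line and the median ratio over all shared regions as a dashed line. All 11 regions of cKO1 lie under equal depth, 10 of 28 lie above it in cKO2, and the Dkk2 intron site is high in both panels.

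Of the 25 distal regions, 3 were held by 3 lists. They lay 67.0 kb past the Sfrp1 TSS (scaled depth 17.26 in Ctrl1, 9.16 in cKO1 and 12.73 in cKO2), 8.56 kb into Frzb (18.49, 6.75 and 14.95) and 11.3 kb upstream of Dkk3 (12.95, 6.27 and 9.96). Ctrl1 was the deepest and cKO1 the shallowest at each of the 3. The strongest distal regions held by 2 lists lay 21.3 kb upstream of Dkk3 (23.43 in Ctrl1 and 10.52 in cKO2) and 18.0 kb into Dkk2 (17.26 and 13.28). A site 21.6 kb into Wif1 had the same rank in Ctrl1 as the one in Dkk2 (9674) and scaled depths of 17.26 and 12.18. Dkk3 thus had open sites on both sides of its TSS but no peak at it.

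The intronic sites of Frzb (chr2:80438916-80439215, GRCm38.p6, minus strand) and Dkk2 (chr3:132103130-132103429, plus strand) are shown with the same motifs in capitals, because the rule for naming distal regions chose them and they lie inside an antagonist gene.
Frzb intron: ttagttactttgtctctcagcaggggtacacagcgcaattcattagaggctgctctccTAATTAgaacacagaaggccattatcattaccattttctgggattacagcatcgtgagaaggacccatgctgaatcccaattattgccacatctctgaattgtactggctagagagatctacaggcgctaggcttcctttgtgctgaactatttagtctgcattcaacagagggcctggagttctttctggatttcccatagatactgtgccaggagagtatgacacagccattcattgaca
Dkk2 intron, 18.0 kb past the TSS: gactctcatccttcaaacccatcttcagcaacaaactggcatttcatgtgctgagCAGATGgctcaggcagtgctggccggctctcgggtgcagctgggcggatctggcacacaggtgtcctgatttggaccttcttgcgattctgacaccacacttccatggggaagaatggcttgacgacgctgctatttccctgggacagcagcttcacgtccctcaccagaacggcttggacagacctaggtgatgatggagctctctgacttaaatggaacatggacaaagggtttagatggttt

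The Frzb site holds TAATTA 1 time and the Dkk2 site CAGATG 1 time. Over the 25 distal regions, 8 hold CTTTGA, 8 hold TAATTA and 7 hold CAGATG in the 300 bp at the summit. Over the distal peaks of Ctrl1, Ctrl2, cKO1 and cKO2, CTTTGA occurs in 18.6%, 6.06%, 15.4% and 18.1%, TAATTA in 16.6%, 3.29%, 13.0% and 15.2% and CAGATG in 34.2%, 21.6%, 32.8% and 35.9%. Of the 8 regions with CTTTGA, 5 are at Dkk3, which has 6 distal regions, and 3 are among the 19 at the other loci. At the 8 promoter regions of the set, neither CTTTGA nor TAATTA occurs and 3 hold CAGATG. Over all peaks within 2 kb of a TSS in Ctrl1, Ctrl2, cKO1 and cKO2, CTTTGA occurs in 10.6%, 10.6%, 9.68% and 10.2%, TAATTA in 3.54%, 1.68%, 2.49% and 3.28% and CAGATG in 13.0%, 9.74%, 11.3% and 13.7%. The distal regions had a median of 4 CpGs in this window (0 to 9) and the promoter regions 15.5 (8 to 28). A match is a description and not a bound site.

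Other extracellular regulators of the pathway were counted in the same way. The list held 20 genes, among them the DKK receptors Kremen1 and Kremen2, the co-receptors Lrp5 and Lrp6, the R-spondins, their Lgr receptors and the ligases Znrf3 and Rnf43. A promoter peak was found for 9 of them in Ctrl1, 0 in Ctrl2, 6 in cKO1 and 9 in cKO2, beside 58.0%, 8.27%, 40.3% and 55.9% of all genes. Of the 20, 10 had one in any list, against the 60.2% of all genes. Both cKO percentiles were above both Ctrl percentiles at 2 of them, Rspo2 (43.7 and 0 in Ctrl, 60.2 and 48.0 in cKO) and Znrf3 (75.6 and 0 in Ctrl, 75.9 and 82.2 in cKO). Because Ctrl2 was at 0 for all 20, none could lie below, and the upward call asks only whether both cKO values exceed that of Ctrl1. Rspo2 encodes an enhancer of Wnt signaling, and Znrf3 a ligase that removes Frizzled receptors. Lrp6, the co-receptor that DKK1 binds, was at 78.2 and 0 in Ctrl and 86.6 and 69.1 in cKO, and Lrp5 had no promoter peak in any list. Of the genes that any list gave a promoter peak, this makes 2 of 10 regulators and 1 of 7 antagonists, neither above the background of 20.5%, and no test was made over either list.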

How the data were processed

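P0 hippocampal ATAC-seq libraries, 2 cKO and 2 Ctrl by their titles, were analysed. By the methods of the study, the authors used Cutadapt for trimming and Bowtie2 for alignment to mm10. Blacklisted, mitochondrial and duplicate reads were removed and alignments were shifted for the Tn5 offset. Peaks were called with MACS2 2.2.7.1 (version from the submitters' processing notes), separately per library and with no control. The removal of duplicates and blacklisted regions may lower the depth behind a peak, which was not measured here. The deposited lists give a display score (not used), a fold enrichment (a ratio of depth to local background) and −log10 p-values and q-values. No fold or p-value was compared across lists.

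The members and gene lists were chosen with earlier results of these data known. The basic GENCODE M21 set on GRCm38 gave TSSs, and positions are 1-based. All 10 members were named. Regions named were the strongest promoter peak of each list and the 5 distal regions held by most lists, ties by best rank. Named neighbours were the 3 protein-coding genes nearest in percentile to Sfrp2 and to the member with the highest mean percentile. Fragments were recovered from fold and p-value, within 0.01 of the −log10 p for at least 99.986% of peaks. The depth per library follows from the shortest peak and mean background and was not checked against reads. Scaled depth is fragments over the genome mean. Intervals are exact Poisson at 95% and cover counting error only, and a summit is a maximum, which raises it. Percentiles were compared by the exact two-sided permutation test with Benjamini-Hochberg adjustment, in Python 3.11.15 with scipy 1.17.1, after a check on simulated data. Sequences are from RefSeq (GRCm38.p6), with promoters matched for 6 of 10 members and not for Sfrp1, Sfrp4, Dkk3 and Dkk4. Alternatives changed the promoter window, peak assignment, list length, q threshold, repeats, TSS set, ranking, flanks and libraries. A marker gene of the tissue is not reported here and was left out of its list.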

Additional observations from a re-analysis of the deposited data

How the results depend on the processing

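Changing the processing, other than by leaving out a library, left the differences in the number of members with a promoter peak (1.0) and in peaks at the loci (5.5) in their direction, at 1.0 to 1.5 and 1.5 to 10.5. Leaving out 1 library at a time gave −2.0 to 4.0 for the first and −12.0 to 23.0 for the second, and without Ctrl2 both turned negative. For peaks at the loci the same happened without cKO2 (−5.5). Among single genes, Sfrp2 (−0.328) turned to 1.79 with promoters of 1 kb, to 29.6 with promoters of 3 kb (chosen after seeing the data), and ranged from −25.8 (without Ctrl2) to 25.2 (without Ctrl1) with 1 library left out, at 24.8 without cKO1. Frzb (29.8) turned to −25.2 at a −log10 q of at least 5, and was 56.5 with promoters of 1 kb (groups separated, exact permutation p = 0.333) and 4.63 to 55.0 with 1 library left out, and Wif1 (27.7) ranged from −5.71 without Ctrl2 to 61.2 without Ctrl1. The cause of these changes was not tested. In lists of 7037 peaks each, Sfrp1, Sfrp2, Sfrp4, Frzb, Wif1 and Dkk1 were at 0 in all libraries, and Dkk2 was at 0 in both Ctrl libraries and at 89.5 and 78.2 in cKO (difference 83.8 against 49.3). The cut itself put Ctrl1 at 0, as its Dkk2 peak ranked 9328, against 2978 in cKO1 and 6448 in cKO2. The scaled depth of that Ctrl1 peak, 21.58, lay between 15.91 in cKO1 and 24.91 in cKO2. The larger difference is therefore no stronger evidence of a change. With genes without a peak at their mid-rank, the Dkk2 difference was 26.4. It was 6.86 for Frzb, 4.79 for Wif1, 8.85 for Sfrp1 and −8.32 for Sfrp2. Sfrp4 (−18.8) and Dkk1 (−18.1) then had both cKO values below both Ctrl values (exact permutation p = 0.333). List length fixed that order and its p for any gene with a peak in Ctrl1 only, as both genes were, so neither is evidence of a change. At a −log10 q of at least 5, Sfrp4 and Dkk1 were at 0 in all libraries. With 1 library left out the Dkk2 difference was 14.9 to 83.8 and that of Sfrp1 0 to 54.7. Replicate numbers are the same in both groups, but deviations correlated at only 0.05 over 13196 genes. With the replicate number as a block, the differences stayed 1.0 and 5.5, no p could go below 0.5, and 0 genes had a p under 0.05. The crossed pairing also gave 0. A gene without a peak shows only that none was called, at a minimum of 7 to 12 fragments at mean background.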
